A study of Mus musculus with 38 samples.

Results

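The response to BMP4 was compared across the transcriptome of JGESO cells at day 7, in 1 bulk RNA-seq library with BMP4 and 1 without. Every gene of the FPKM table was kept except microRNAs, small nucleolar RNAs and other short RNAs, which left 35675 of 37108 genes, and 14140 of these had a mean of at least 1 FPKM over the 8 libraries of the table and entered the counts. JGESO stands for retroviral delivery of Jdp2, Glis1, Esrrb, Sall4 and Oct4 (Pou5f1) into E13.5 mouse embryonic fibroblasts of OG2 crossed with 129S4/SvJaeJ mice, which carry an Oct4-GFP reporter, a protocol that drives fibroblasts toward pluripotency. Infected cells of both libraries were held in iCD3 medium, which contains TV, vitamin C, mLIF, bFGF and small molecules (CHIR99021, the DOT1L inhibitor SGC0946, an LSD1 inhibitor and Y27632), and BMP4 at 10 ng/ml was the only labelled difference between them. The study asked how BMP4 changes the fate of reprogrammed cells and how this depends on Sall4, and the same table holds a pair of libraries with and without BMP4 for JGES (no Oct4), JGEO (no Sall4) and JGE (neither). The 4 pairs share no library.

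BMP4 is a secreted ligand that binds type I and type II receptor kinases, which phosphorylate SMAD1, SMAD5 and SMAD9. These enter the nucleus with SMAD4 and act on genes such as Id1, Id3, Msx2, Smad6 and Bambi, several of which encode inhibitors of the pathway. In the early embryo BMP signaling acts on the epiblast and on the extra-embryonic layers, and it opposes neural and favours surface ectoderm and mesoderm fates. Primitive endoderm (PrE) is the layer marked by Gata6, Gata4 and Sox17 that forms beside the pluripotent epiblast, and keratins are the intermediate filament proteins of epithelia and hair.

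With 1 library on each side the differences had no replicate check, so the values are descriptions without a test, and this holds for differences between factor sets too. In bulk RNA fewer cells of a type and less RNA per cell cannot be told apart. Reads estimated from the steps of the FPKM values numbered about 19800000 without and 14700000 with BMP4 in JGESO, 14300000 to 16100000 in JGEO and JGE, and 2700000 and 2900000 in JGES, so low genes were measured less precisely in JGES. Pou5f1 stood at 370 and 449 FPKM in JGESO without and with BMP4 and at 1570 and 1599 FPKM in JGEO. In the sets without delivered Oct4 it was at 0 and 0.097 FPKM in JGE and at 224 and 5.94 FPKM in JGES. Sall4 was at 174 and 213 FPKM in JGESO, at 28.9 and 30.3 FPKM in JGEO and at 2.09 and 6.23 FPKM in JGE. Jdp2 read 320 and 541 FPKM and Esrrb 109 and 134 FPKM in JGESO. In the other sets Jdp2 was at 1290 and 1513 FPKM in JGEO, 1722 and 1499 in JGE and 228 and 254 in JGES. Esrrb was at 384 and 486 FPKM in JGEO, 561 and 369 in JGE and 167 and 125 in JGES. The sets therefore differed in the levels of shared delivered factors as well. Xist and the Y-linked Ddx3y were above 0 in both JGESO libraries (4.77 and 2.83 FPKM, 0.271 and 0.506 FPKM). In JGES both were higher than in the other sets, at 38.9 and 39.7 FPKM and at 7.43 and 7.29 FPKM, and the reason was not tested. Glis1 was barely seen, at 0.203 and 0.347 FPKM, and FPKM of a delivered gene does not separate viral from endogenous transcripts. RNA of the JGESO, JGEO and JGE libraries is labelled polyA RNA and that of JGES total RNA, so factor set and kind of RNA cannot be told apart in comparisons with JGES. Where 2 levels stand together below, the library without BMP4 comes before the one with it.

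Few genes differed strongly between the JGESO libraries. A gene was counted when its log2(FPKM + 1) differed by at least 1 between the libraries, which understates the fold of genes near 1 FPKM. By this measure 563 genes (3.98% of those compared) were higher with BMP4 and 355 (2.51%) were lower, around a median difference of 0.00 over all 14140 genes. With a pseudocount of 0.1 in place of 1 the counts were 1089 and 818, and with 5 they were 180 and 94. Protein-coding genes made up 479 of the higher and 301 of the lower genes, and 61 and 47 were unnamed gene models. Of the 563 higher genes, 81 reached at least 50 FPKM in the library with BMP4, while 19 of the 355 lower genes reached that level without it. Differences of at least 3 were found for 23 higher genes and 3 lower genes.

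**Figure D1:**
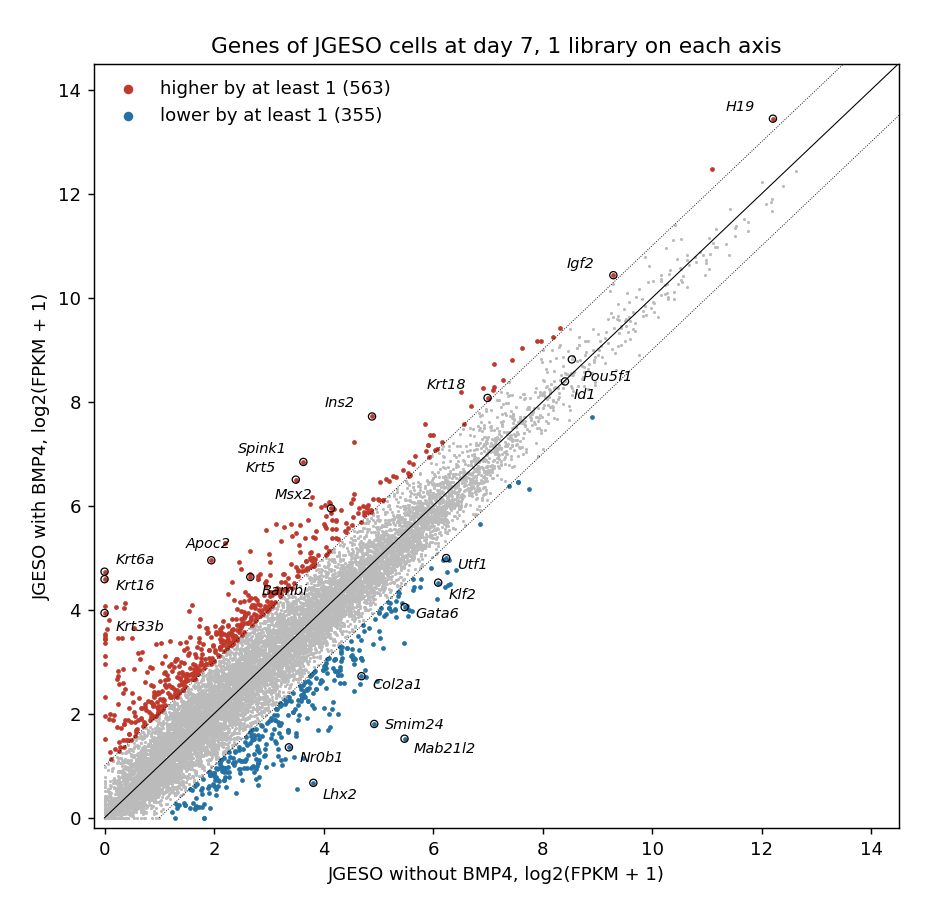
Each point is a gene, with log2(FPKM + 1) of the JGESO library without BMP4 on the x axis and with BMP4 on the y axis, and dotted lines mark a difference of 1 either way. The 563 higher genes (red) include a column of keratins listed at 0 without BMP4, and the 355 lower genes (blue) include Mab21l2 and Lhx2.

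Keratin genes led the response. Of the 15 largest differences upward 12 were keratin or keratin-associated genes, and the others were Spink1 and Cgas, which the table lists under its former symbol Mb21d1 as well. Krt6a, a keratin of stratified epithelium under stress, was listed at 0 without BMP4 and at 25.6 FPKM with it, from about 847 reads. Its partner Krt16 went from 0 to 23.0 FPKM and Krt6b from 0 to 15.8 FPKM. The hair keratins showed the same step: Krt33b was listed at 0 and 14.3 FPKM, Krt85 at 0.15 and 15.7, Krt87 at 0.0554 and 12.9, Krt81 at 0.0272 and 11.4 and Krt86 at 0 and 10.5. Krt33a (0 and 10.2 FPKM), Krt31 (0 and 9.87), Krt34 (0 and 9.83) and the hair matrix gene Krtap3-3 (0 and 9.31) completed the group. Krt6a and Krt6b, Krt16 and Krt17, Krt33a and Krt33b, Krt31 and Krt34, and Krt81, Krt83, Krt86 and Krt87 are related copies, and how the authors' counting divided reads that match several of them was not examined, so their single levels are uncertain. Some were told apart without BMP4, where Krt17 had about 83 reads and Krt16 none, and Krt83 had 16 and Krt86 none.

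After these values were seen, the whole family was summarised. The table holds 55 Krt and 54 Krtap genes, of which 39 were higher by at least 1 in JGESO (29 and 10) and none lower. Without a filter on level, 624 of all 35675 genes (1.75%) were higher and 403 (1.13%) lower. Of the 27 keratin genes that entered the counts 22 were higher, where 3.98% of all genes compared were. Genes at 0 without BMP4 could enter only through their level in other libraries. Most of the 22 entered only through JGESO with BMP4, where they were high. Among them were Krt6a, Krt6b, Krt16, Krt31, Krt33a, Krt34, Krt81, Krt86 and Krt87. Krt33b and Krtap3-3 were listed at 0 in all other libraries. The count of 22 is therefore a description, and nothing is drawn from setting it beside that share. Summed over all 109, the level was 331 FPKM without and 942 FPKM with BMP4, and the number listed at 0 went from 83 to 49. Some keratins that were above 0 without BMP4 were higher too. Krt5 and Krt14, the pair that marks basal keratinocytes, stood at 10.3 and 6.73 FPKM without BMP4 and at 89.6 and 45.5 FPKM with it, 8.74-fold and 6.76-fold higher. Krt18, a keratin of simple epithelia, went from 126 to 268 FPKM, and its partner Krt8 from 70.9 to 136 FPKM, a difference of 0.93 that stayed below 1. Krt19 (106 and 134 FPKM) and Krt7 (3.41 and 3.22) lay within the fold.

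The same family was higher by at least 1 for 24 genes in JGES, 2 in JGEO and 5 in JGE, and lower for none in JGES, for Krtap7-1 in JGEO and for Krt7 and Krt20 in JGE. Those counts are over all 109 genes. Of the 27 that entered the counts 17, 2 and 4 were higher, where 8.45%, 1.48% and 3.30% of all genes compared were. Nothing is drawn from these shares either, since the same filter applies. The sum of the family went from 104 to 521 FPKM, from 34.9 to 72.5 and from 132 to 192. Krt31, Krt33a, Krt33b and Krt34 were at 0.0417 FPKM or less in all 4 libraries of JGEO and JGE, whereas Krt85 was at 3.48 and 2.69 FPKM in JGE. Krt5 was at 61.6 FPKM in JGES with BMP4 and listed at 0 there without. Krt33b and Krtap3-3 were above 0 in JGESO with BMP4 and listed at 0 in the other 7 libraries.

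**Figure D2:**
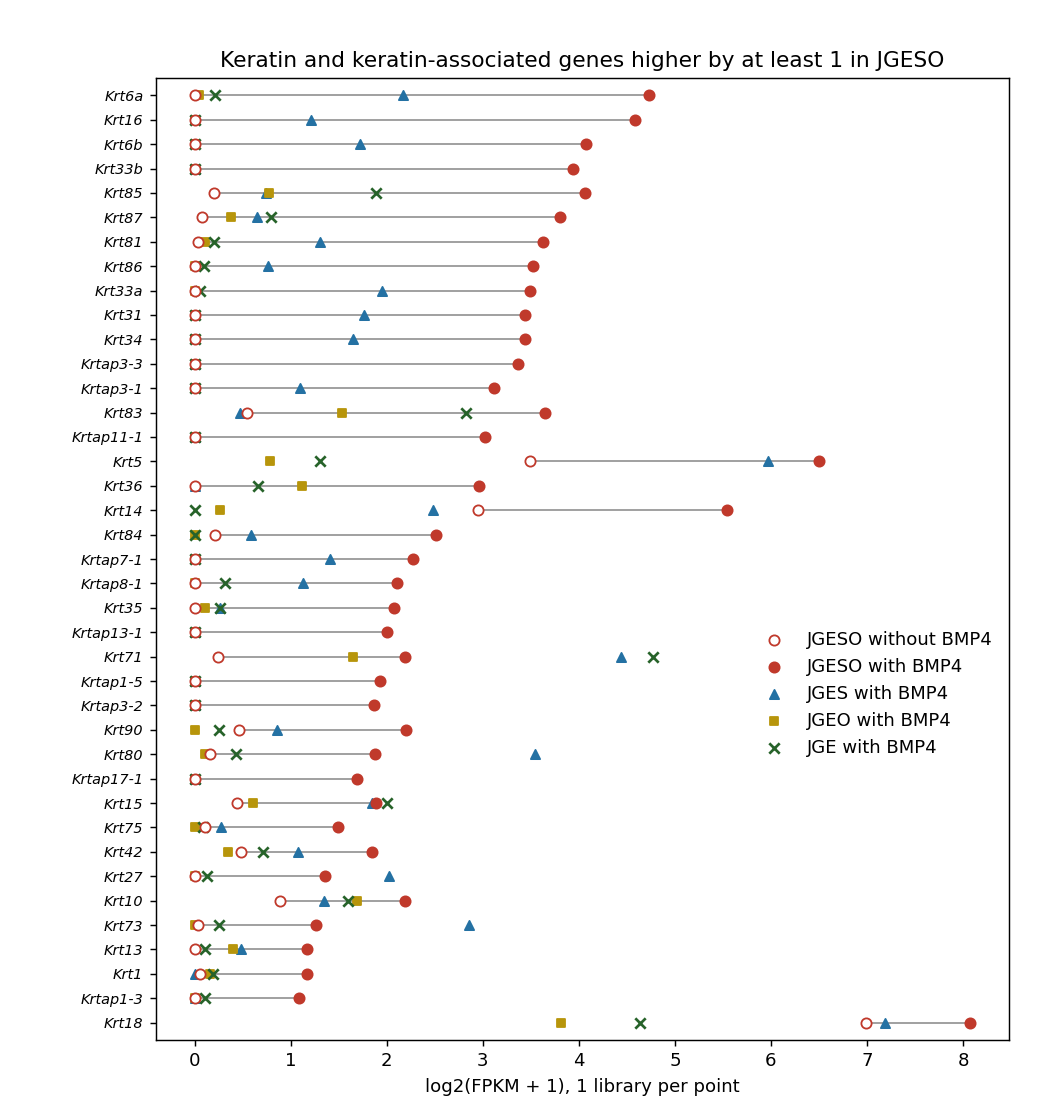
log2(FPKM + 1) of the 39 keratin and keratin-associated genes higher by at least 1 in JGESO, 1 library per point, with a line from JGESO without BMP4 (open circle) to with BMP4 (filled circle) and the libraries with BMP4 of JGES, JGEO and JGE as other symbols. Most genes start at 0, while Krt5, Krt14 and Krt18 start above it.

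The sequences before the start sites of keratin genes are shown because these genes were higher together. Of the 39 higher genes 19 lie on chromosome 11, 15 on chromosome 15 and 4, all Krtap genes, on chromosome 16, and Krt85 had no position in the annotation used. Each sequence is the 100 bases before the start in RefSeq (GRCm38.p6, all on the minus strand, read 5′ to 3′), and capitals mark the letters TATAAA, the core of the TATA box. Krt33b lies at chr11:100029869-100029968, Krt31 at chr11:100050552-100050651, Krt34 at chr11:100041555-100041654, Krtap3-1 at chr11:99566631-99566730 and Krt5, which lacks the letters, at chr15:101712906-101713005.
Krt33b: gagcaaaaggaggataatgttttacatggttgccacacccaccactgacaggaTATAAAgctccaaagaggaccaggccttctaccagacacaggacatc
Krt31: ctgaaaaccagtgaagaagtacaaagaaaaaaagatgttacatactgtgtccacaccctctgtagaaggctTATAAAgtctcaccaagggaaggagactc
Krt34: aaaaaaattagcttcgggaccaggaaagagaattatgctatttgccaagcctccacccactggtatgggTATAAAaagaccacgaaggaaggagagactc
Krtap3-1: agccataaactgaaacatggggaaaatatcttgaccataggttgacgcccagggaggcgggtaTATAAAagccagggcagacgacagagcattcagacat
Krt5: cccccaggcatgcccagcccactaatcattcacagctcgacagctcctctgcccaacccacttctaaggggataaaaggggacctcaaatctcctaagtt

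The sequences above are examples, and Krtap3-3, which differed more than Krtap3-1 (3.37 against 3.12), lacks TATAAA and is not shown. TATAAA was searched on both strands of the 100 bases before each start. Of the 22 higher keratins that entered the counts 11 have an entry in the promoter table, and it was present for 6 of these, against 291 of 10508 genes compared (2.77%). The 11 were picked as higher in JGESO and were not set beside keratins that were not higher. The share of 6 therefore cannot tell the response from a trait of keratin promoters, and nothing is drawn from it. Over all genes with an entry, 34 of 368 higher genes (9.24%) and 18 of 241 lower genes (7.47%) held it. GGGCGG, the core of the GC box, was found for none of the 11 keratins, for 39.1% of higher, 38.2% of lower and 47.6% of all genes compared. GGCGCC, a motif bound by SMAD1 and SMAD5, was held by 1 of the 11 keratins and by 5.98% of higher, 10.8% of lower and 9.71% of all genes compared. A match describes letters only, and a gene without a match may hold other forms of the motif.

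Apart from keratins, genes of secreted proteins of the visceral endoderm showed large differences upward. Spink1, a trypsin inhibitor, went from 11.4 to 113.7 FPKM, 9.98-fold higher. The lipid transport gene Apoc2 stood at 2.86 and 29.9 FPKM and the retinol carrier Rbp4 at 7.72 and 48.9 FPKM. The WNT inhibitor Dkk1 was at 15.2 and 64.0 FPKM and the iron carrier Trf at 3.08 and 10.6 FPKM. Of the 17 genes of the list 14 entered the counts, and these 5 passed the fold while none was lower by as much, against 3.98% and 2.51% of all genes compared. The median difference over all 17 was 0.96, or 0.59 with a pseudocount of 5. Ttr (22.5 and 44.6 FPKM) and Apoa1 (10.2 and 20.7 FPKM) came just under it, and Afp, the fetoprotein that defines visceral endoderm, was listed at 0 and 2.22 FPKM, a difference of 1.69 in a gene under the level needed for the counts. Here and for the lists below, genes past the fold are those that entered the counts.

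The 15 largest differences downward included developmental transcription factors and crystallins. Mab21l2, needed for eye and body wall formation, stood at 43.6 and 1.87 FPKM, 23.3-fold lower with BMP4. Lhx2, a LIM homeobox gene of forebrain and eye, went from 13.1 to 0.591 FPKM and Gbx2, a homeobox gene of the hindbrain boundary and of naive pluripotent cells, from 16.3 to 2.34 FPKM. Tcf15, a factor of somites and of epiblast priming, was at 16 and 2.23 FPKM. Lbx1 (8.48 and 1.03 FPKM), Hoxc5 (5.95 and 0.549), the neuronal gene Crmp1 (11.3 and 1.21) and the lens crystallin genes Crybb1 (30.4 and 5.19) and Cryge (8.35 and 1.17) were lower too. Smim24 (29.4 and 2.49 FPKM), Islr (18.2 and 2.98), Hic1 (13.8 and 2.2), Tmem158 (22.4 and 4.40), Lgals6 (10.0 and 1.25) and B3gnt3 (8.82 and 1.18) made up the rest, beside 1 unnamed model.

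Genes of the BMP pathway itself differed in part. Bambi, a receptor decoy that SMADs induce, went from 5.33 to 23.7 FPKM (4.46-fold) and Msx2, a homeobox target, from 16.6 to 60.8 FPKM (3.67-fold). The other 10 of 12 targets stayed within the fold, and the list median was 0.27, or 0.49 with the medians of GC groups subtracted as described below. Id1 was at 339 and 334 FPKM, Id3 at 432 and 316 and Msx1 at 84.7 and 63.4, and all 3 were above 80 FPKM without added BMP4. Smad6 (36.1 and 49.4 FPKM) and Smad7 (21.0 and 26.1), the inhibitory SMADs, differed little. In JGES 8 of the 12 targets passed the fold upward and in JGE 10, with medians of 1.28 and 1.55, against 1 and a median of 0.08 in JGEO. Of all genes compared 3.98% were higher in JGESO, and 8.45%, 3.30% and 1.48% in JGES, JGE and JGEO.

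Among 26 ligands, receptors, SMADs and antagonists of the pathway, 22 entered the counts, and 2 of these were higher and 1 lower by at least 1, too few to set apart from the 3.98% and 2.51% of all genes compared. The ligand Gdf6 was at 1.65 and 6.96 FPKM, the transcript of Bmp4 itself at 15.5 and 35.9 FPKM and the antagonist Sost at 3.53 and 0.871 FPKM. Levels of the receptor genes Bmpr1a (2.68 and 2.80 FPKM) and Bmpr2 (2.50 and 2.73) lay close together. Smad1, Smad5 and Smad4 stood at 12.9, 5.20 and 8.14 FPKM without and 14.9, 8.95 and 13.9 FPKM with BMP4.

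Pluripotency genes mostly stayed within the fold. Nr0b1, a nuclear receptor of naive cells, stood at 9.32 and 1.55 FPKM, Klf2 at 67.3 and 22 FPKM and Utf1 at 74.6 and 30.8 FPKM, and these 3 of 20 passed the fold downward, against 2.51% of all genes. Sox2 was at 105 and 56.4 FPKM, a difference of -0.88, and Nanog at 11.5 and 9.87 FPKM. Fgf4 (11.1 and 10.9 FPKM), Dppa2 (3.86 and 3.90) and Tfcp2l1 (2.94 and 3.28) were close to level, and Lin28a was at 26.7 and 50.3 FPKM. The median of the list was -0.37 and 15 of 20 members were lower. The same list had a median of -3.68 in JGES, 0.43 in JGEO and 0.00 in JGE. In JGES 19 of 20 genes passed the fold downward, against 10.3% of all genes there. Summed over the 20 genes, the level in JGESO was 715 and 475 FPKM.

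PrE regulators and receptors were present in JGESO without BMP4, and none was higher by 1 or more with it. Gata6, the earliest PrE regulator, was at 43.7 and 15.6 FPKM, the proteoglycan gene Srgn at 25.6 and 11.1 and the endocytic receptor Cubn at 8.18 and 3.42, and these 3 of 17 were lower by at least 1, against 2.51% of all genes. Gata4 (75.2 and 57.2 FPKM) and Sox17 (43.6 and 35.5) lay within the fold. Cited1 (102 and 179 FPKM), Pitx1 (51.8 and 86.9) and Dab2 (51.9 and 75.2), an endocytic adaptor, were higher by less than 1. The list median was -0.33 in JGESO, 1.15 in JGES, 0.41 in JGEO and 0.05 in JGE. Without BMP4 the 17 genes summed to 757 FPKM in JGESO and 149.8 FPKM in JGES, and with BMP4 to 738 and 420 FPKM.

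Of 14 genes for the basement membrane that PrE derivatives secrete, 12 were lower and only Nid1 (25.8 and 55.6 FPKM) passed the fold, upward, at 1.08 and at 0.97 after GC subtraction. Of all genes compared 3.98% were higher and 2.51% lower by at least 1, so this count is too low to set apart. To any degree 7036 of the 14140 genes compared were lower. Col4a1, a collagen IV chain, was at 864 and 476 FPKM and Col4a2 at 644 and 391, differences of -0.86 and -0.72. Their median was -0.24 in JGESO and 0.54 in JGES.

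Genes past the fold on the lists of surface epithelium were all higher with BMP4. Of 16 keratinocyte genes, chosen apart from the family count but sharing 5 keratins with it, 12 entered the counts and 7 of these passed the fold upward, against 3.98% of all genes. The median over all 16 was 0.70. It was 1.61 over the 12 members counted, 1.38 with a pseudocount of 0.1 and 0.46 with 5. The level filter includes JGESO with BMP4, where Krt5, Krt6a, Krt14, Pkp1 and Sprr1a were highest among the 8 libraries. It therefore favours genes high there, and the count of 7 and the 1.61 are descriptions. Sprr1a, a cornified envelope gene, went from 0.192 to 9.92 FPKM, the plakophilin gene Pkp1 from 0.271 to 4.28 and Perp, a desmosome gene, from 4.95 to 19.2. Trp63, the master regulator of stratified epithelium, was at 0.264 and 0.731 FPKM, under the level needed for the counts. Among 17 epithelial junction and simple keratin genes Ovol1 (1.14 and 4.85 FPKM), Ocln (1.45 and 4.26) and Krt18 passed, while Cdh1 (59.1 and 46.6) and Epcam (45.6 and 48.6) did not.

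Mesenchymal and fibroblast genes had a median of 0.46, with 5 of 22 higher by at least 1, against 3.98% of all genes. These were the smooth muscle genes Tagln (16.5 and 57.1 FPKM) and Acta2 (7.25 and 16.8), the matrix genes Postn (5.15 and 18.4) and Col1a1 (153 and 342), and the receptor gene Pdgfrb (27 and 63.4). Acta2 differed by 1.11, and by just under 1 after GC subtraction. The summed level of this list was 1128 and 1824 FPKM. Of 14 bone and cartilage genes 5 were higher and 8 lower to any degree, with a median of -0.13. Of the 10 that entered the counts 4 passed the fold upward and 1 downward, against 3.98% and 2.51% of all genes. Sp7, the osteoblast regulator, was at 2.71 and 11 FPKM, Mgp at 2.87 and 10.1, Dlx3 at 19 and 59.7 and Ibsp at 0 and 1.85. Col2a1, the cartilage collagen, stood in the opposite direction at 24.8 and 5.59 FPKM.

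Of 14 neural ectoderm genes 10 entered the counts, of which 5 passed the fold downward, against 2.51% of all genes, and none upward, and the median over all 14 was -0.59. The median was -0.91 over those 10, -1.39 with a pseudocount of 0.1 and -0.19 with 5. Among the 5 were Sox3 (5.46 and 0.957 FPKM), Tubb3 (18.9 and 5.70), Zic1 (12.1 and 3.74) and Zic2 (22 and 7.69). T, the Brachyury gene of the primitive streak, was at 2.50 and 0.201 FPKM, the only one of 16 early mesoderm genes past the fold. The Nodal pathway genes Nodal (8.33 and 2.54 FPKM) and Lefty1 (13.1 and 3.31) and the WNT target Sp5 (66.6 and 17.4) were lower, while Inhbb (6.93 and 15.6) and Wnt7b (2.21 and 6.33) were higher. No other member passed the fold among 11 Nodal and activin genes (median -0.09) and 15 WNT targets and ligands (median 0.01). Of all genes compared 3.98% were higher and 2.51% lower by that much.

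HOX and CDX genes had a median of -0.46 over 18 members, with 2 higher and 3 lower by at least 1 (3.98% and 2.51% of all genes were), and of -0.74 and -0.24 with pseudocounts of 0.1 and 5. The posterior genes Hoxd13 (1.28 and 9.58 FPKM) and Hoxa13 (1.2 and 7.65) were higher with BMP4. Hoxd9 was at 17.1 and 3.67 FPKM, Hoxb1 at 1.73 and 0.218 and Hoxa5 at 3.37 and 1.2. Trophoblast genes had a median of 0.00, with Esx1 (4.90 and 14 FPKM) and Gata3 (2.07 and 6.77) the 2 of 18 past the fold, against 3.98% of all genes, and Elf5, which defines trophoblast stem cells, listed at 0 in both libraries. Of 13 germ cell genes 10 were lower to any degree, with a median of -0.24, and only Dnd1 (11.4 and 4.87 FPKM) passed the fold. The imprinted growth genes H19 (4723 and 11134 FPKM) and Igf2 (626 and 1381 FPKM) passed the fold upward, 2 of 12 on their list, whose median was -0.07.

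Several lists held few or no genes past the fold. None of 14 NuRD subunits, 16 FGF and ERK feedback genes, 17 cell cycle genes, 10 interferon genes, 9 DNA methylation enzymes or 10 housekeeping genes passed it in JGESO, with medians between -0.38 and 0.08. The cell cycle median was -0.32 with 12 of 17 genes lower, among them Mcm2 at 107 and 55.9 FPKM. Only Cdkn2b, at 10.6 and 23.9 FPKM, passed among 13 p53 and senescence genes. Of all genes compared 3.98% were higher and 2.51% lower by at least 1, so such counts in lists this short cannot be set apart from these shares.

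Markers of other cells were followed beside these lists. The 10 macrophage markers summed to 61.9 and 127.6 FPKM, with Lyz2 at 31.9 and 87.1 and Cd14 at 1.55 and 5.87, and 2 of 10 passed the fold, where 3.98% of all genes did so upward. The 12 endothelial markers summed to 104 and 114 FPKM, with Cdh5 (1.82 and 5.77 FPKM), Flt1 (6.86 and 15.3), Tie1 (1.75 and 4.64) and Kdr (1.71 and 4.46) past the fold and Pecam1 at 3.85 and 4.90. Flt1 (0.95) and Kdr (0.90) were under the fold after GC subtraction, and Kdr (0.998) also after scaling to a median ratio of 1. Of 15 blood markers Hba-a1 and Hba-a2, near-identical globin genes between which reads can be split, were the 2 past it, and Ptprc and the globin genes Hbb-bs, Hbb-bt and Hbb-y were listed at 0 in both libraries. The part of such cells in the differences was not tested.

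**Figure D3:**
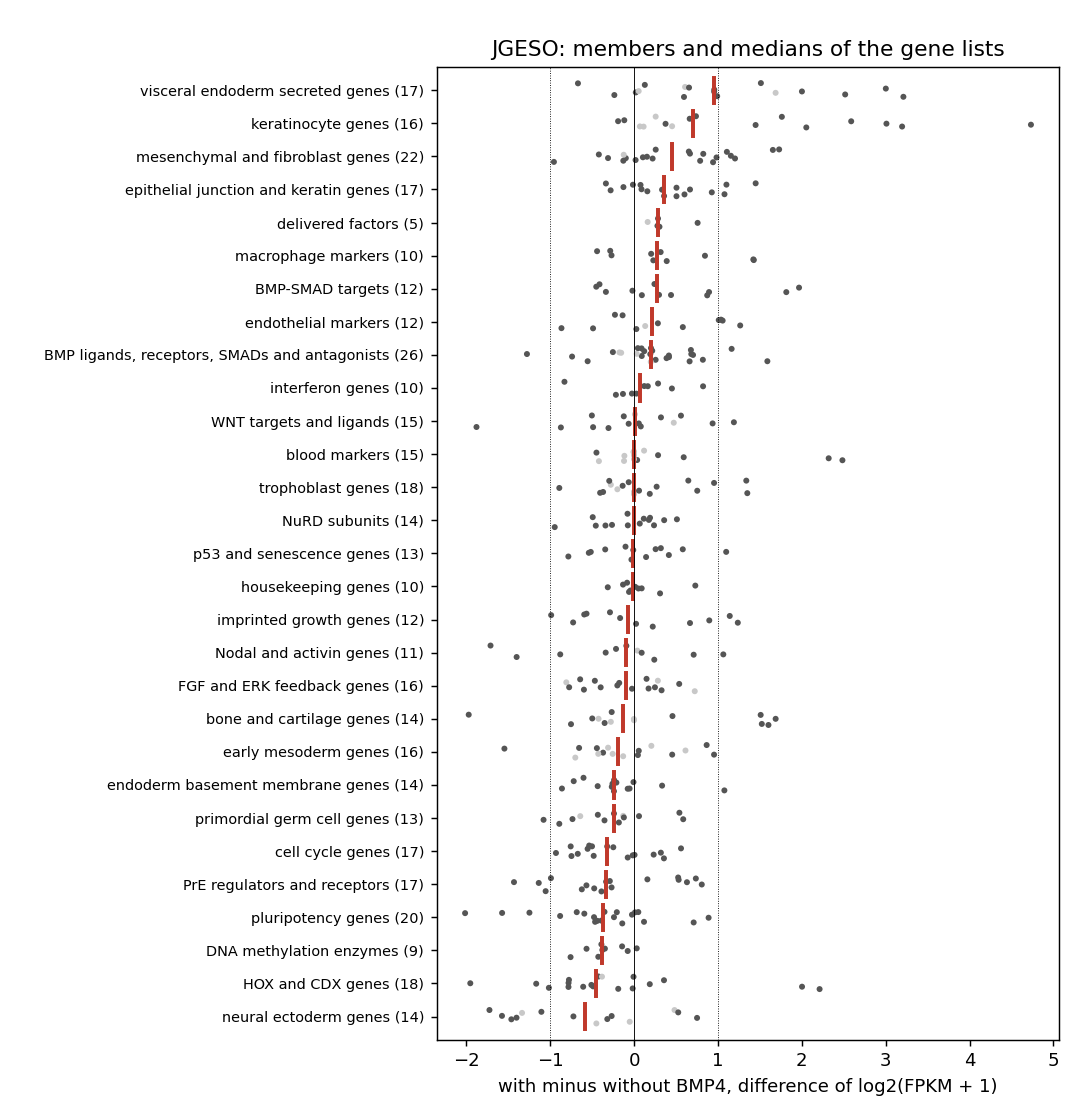
Differences of log2(FPKM + 1), with minus without BMP4 in JGESO, for the members of 29 gene lists (1 point a gene, light points for members under a mean of 1 FPKM over the 8 libraries, number of genes in parentheses), with red bars at the list medians. Visceral endoderm and keratinocyte genes have the highest medians, 0.96 and 0.70, and neural ectoderm genes the lowest, -0.59.

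The same contrast in the other factor sets gave other numbers of genes. In JGES 1195 genes (8.45%) were higher and 1452 (10.3%) lower by at least 1, from libraries of lower depth. JGEO had 209 higher (1.48%) and 168 lower (1.19%) genes, and JGE 467 higher (3.30%) and 540 lower (3.82%). Of the 563 genes higher in JGESO, 243 were also higher in JGES, which is 43.2% of the JGESO genes and 20.3% of the JGES genes, and 21 were lower there. The shares were 7.46% and 20.1% with JGEO (42 genes, with 8 lower there) and 13.1% and 15.8% with JGE (74 genes, with 47 lower there). In JGE 48.1% of the 563 genes had a difference above 0. Of the 355 lower genes, 188 were lower in JGES (53% and 12.9%), 52 in JGEO (14.6% and 31.0%) and 40 in JGE (11.3% and 7.41%), while 11, 23 and 20 were higher there.

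Medians over the JGESO genes were farthest from 0 in JGES. The 563 higher genes had a median difference of 0.76 in JGES, 0.08 in JGEO and 0.00 in JGE, and the 355 lower genes -1.11, -0.23 and -0.06. With a pseudocount of 5 the medians in JGES were 0.46 and -0.52, and that of lower genes was -1.66 with 0.1. Past the fold in JGESO alone were 260 higher genes (46.2%) and 103 lower genes (29.0%), beside other sets that called from 1.19% to 10.3% of all genes in a direction. Cgas, the cytosolic DNA sensor, was not among these and stood at 0.294 and 16.5 FPKM in JGESO, at 1.04 and 4.62 in JGEO and at 29.2 and 9.92 in JGE without and with BMP4, lower with BMP4 in the last.

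Genes higher in all 4 sets numbered 25 and genes lower in all 4 numbered 3. The higher genes included the homeobox genes Msx2, Dlx3 and Six2 (16.8 and 51.6 FPKM in JGESO), Dkk1, Ins2 (28.5 and 209 FPKM), the endothelial genes Cdh5, Tie1, Icam2 and Pcdh12, the neighbouring genes H19, Igf2 and Igf2os, the keratin Krt71, and Trf, Aldh1a3, Dusp2, Dcpp1, Fbxo2, Gchfr, Slc7a8 and Srarp. Srarp is also listed under its former symbol Gm694. Igf2os lies antisense to Igf2, and the use of strand in the counting is not given in the sources used here, so reads of the pair cannot be told apart. Zic1, Cacng7 (31.4 and 11.1 FPKM) and Lrp3 (7.77 and 1.69) were lower in all 4.

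A few genes differed in opposite directions in JGESO and JGES. Apela, which encodes a ligand of the apelin receptor in early endoderm and pluripotent cells, stood at 10.9 and 48.3 FPKM in JGESO and at 25.5 and 9.37 in JGES. Hba-a1 was at 0.181 and 5.61 FPKM in JGESO, from about 2 and 46 reads, and at 15.9 and 0 in JGES. Asprv1, a protease gene of the epidermis, was at 0.527 and 7.98 FPKM and at 2.42 and 0. Smim24 was at 29.4 and 2.49 FPKM against 0.646 and 3.58 in JGES, where the shallower libraries make such low values coarse.

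**Figure D4:**
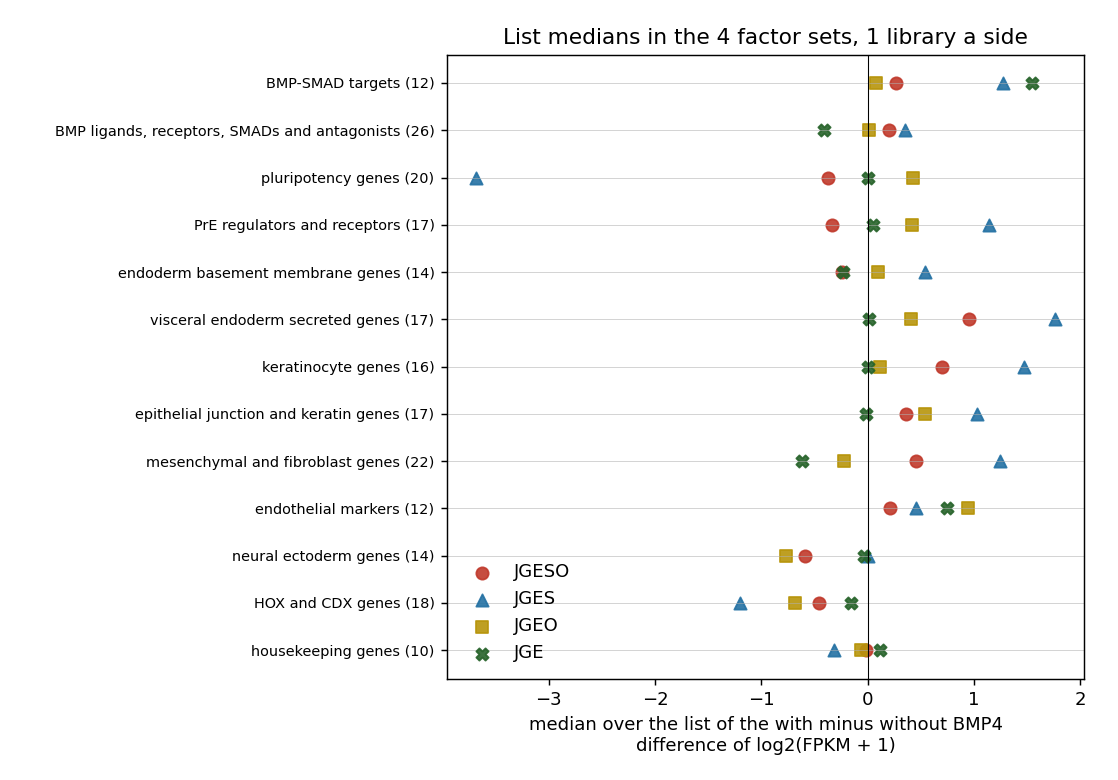
Median difference of log2(FPKM + 1), with minus without BMP4, over 13 gene lists (number of genes in parentheses) in each factor set, 1 library a side. JGES lies far to the left for pluripotency genes (-3.68, against -0.37 in JGESO) and to the right of 0 for PrE regulators (1.15, against -0.33).

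Levels in JGESO also moved with base composition. Genes were put in 5 groups of equal size by the GC content of their transcripts, a value that 92.9% of the genes compared had. Without BMP4 the median level in JGESO went from 1.58 FPKM in the group of lowest GC to 15.7 FPKM in the highest, from 3.47 to 12.7 FPKM in JGEO, from 6.25 to 9.90 in JGE and from 8.84 to 8.20 in JGES. The median difference with BMP4 in JGESO was 0.02, 0.16, 0.11, -0.07 and -0.22 from lowest to highest GC. Lower genes numbered 10, 24, 43, 87 and 149 in the 5 groups and higher genes 84, 131, 107, 99 and 97. Median GC was 50.1% for higher, 55.9% for lower and 50.5% for all genes compared. The 38 higher keratin genes with a GC value had a median of 55.0%, with Krt6a at 54.3%, Krt16 at 55.8%, Krt33b at 57.2% and Krtap3-3 at 51.6%. Among genes with a GC value 518 were higher and 313 lower, and 480 and 268 once the median of each GC group was subtracted, an alternative chosen after seeing these values. The part of base composition in single differences was not tested beyond this.

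**Figure D5:**
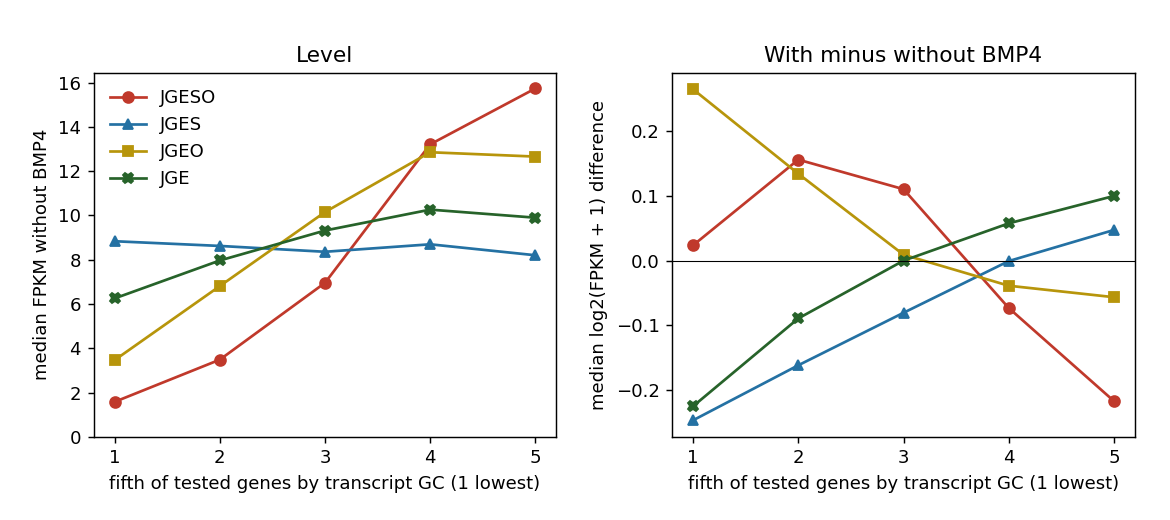
Median FPKM without BMP4 (left) and median difference of log2(FPKM + 1) with minus without BMP4 (right) in 5 equal groups of genes by transcript GC, 1 line per factor set. In JGESO the level climbs from 1.58 to 15.7 FPKM with GC and the difference ends at -0.22 in the group of highest GC.

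SALL4 peaks near these genes were taken from Cut&Tag of cells that received SALL4 alone, wild type (69475 peaks) or with the N-terminal 12 residues deleted (delN12, 67310 peaks), at day 6. These are other cells than JGESO and hold no contrast with BMP4. A wild-type peak lay within 2 kb of a start site for 10676 of 13133 genes compared (81.3%), for 362 of 518 higher genes (69.9%) and for 142 of 313 lower genes (45.4%). For delN12 the shares were 63.5%, 51.7% and 30.0%. Among genes with a mean of 5 to 20 FPKM in JGESO, a grouping added after seeing the shares, they were 83.9%, 71.9% and 51.1% for the wild type. Bambi, Msx2, Gata6 and Klf2 had peaks of both forms. Among keratins named above, Krt18 had peaks of both forms, Krt5, Krt8, Krt16 and Krt19 a wild-type peak only and Krt6a a delN12 peak only. Krt6b, Krt14, Krt31, Krt33a, Krt33b, Krt34, Krt81, Krt86, Krt87 and Krtap3-3 had none of either form.

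Single cells were sequenced for JGES and not for JGESO, so the cell types of these genes can be described for that factor set alone. Under the deposited labels the JGES sample with BMP4 held 7125 cells of an intermediate state, 2372 labelled ParE, 1453 endothelial and 385 placenta-like, with medians of 19594 to 28906 UMIs per cell, against 11562 to 15444 in the sample without. The paper's text names primitive endoderm-like cells beside the other types and no ParE cluster, so the ParE label is taken here to mean those cells. It reports them as closer to PrE than to parietal endoderm. Cells were kept as deposited and no doublet caller was run, and the part of doublets and of free RNA in low levels was not tested. Of 11335 and 8685 barcodes with and without BMP4, 2 were shared. UMIs were summed over the cells of a type and divided by all UMIs of that type (CPM), with exact Poisson intervals at 95% that cover counting error only. Of the 439 genes higher in JGESO with at least 100 UMIs in that sample, 229 (52.2%) had their highest level in the intermediate state, against 29.3% of 11837 genes compared, and the share for lower genes was 46.2% of 225.

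Keratin levels in JGES differed by cell type. Krt5 was at 54.4 CPM (53.2 to 55.5) in the intermediate state with BMP4 and 0.024 CPM (2 UMIs) without, and at 3.09 to 8.67 CPM in the other types with BMP4, which is not read as expression there. Krt14 was highest in placenta-like cells, at 39.5 CPM (36 to 43.2), and Krt6a reached 1.88 CPM in the intermediate state. Summed over the 28 of the 39 keratins found in the UMI table, the level with BMP4 was 613 CPM in the intermediate state, 578 in ParE and 1725 in placenta-like cells, where Krt18 alone stood at 1641 CPM.

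Secreted endoderm genes did not share 1 cell type. Spink1 was at 446 CPM (441 to 452) in ParE with BMP4 and at 12.1 CPM or less in the other types with BMP4, with 1088 CPM in the 142 ParE cells without it, and Rbp4 at 107 CPM (104 to 110) in ParE. Dkk1 was highest in placenta-like cells (346 CPM) and at 237 CPM in the intermediate state, and Trf was at 44.1 CPM in endothelial cells and 38 CPM in the intermediate state, against 131 and 8.74 CPM in ParE. Apoc2 had 20 UMIs in ParE and 3 in the intermediate state with BMP4, too few to place it. Bambi was highest in the intermediate state, at 385 CPM with and 73.1 CPM without BMP4. Cdh5 (179 CPM) and Lyz2 (47.8 CPM) were highest in endothelial cells. Klf2 was at 293 CPM in the pluripotent cells that were labelled only without BMP4 and at 10.5 CPM or less in each type with it.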

How the data were processed

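Each JGESO library is 1 sample, as are the other conditions. The growth text of the labels names JGES virus only, so the added Oct4 rests on the sample names. Per the submitters' processing notes, the authors trimmed bulk RNA-seq reads with Trim Galore 0.6.4, mapped them to mm10 with HISAT2 2.2.1 and deposited FPKM from StringTie 2.2.1. The study's own GFOLD comparison needs reads and was not run here. Differences are of log2(FPKM + 1), and a gene was called at 1. Genes entered the counts at a mean of at least 1 FPKM over 8 libraries. These include both JGESO libraries, so the filter favours genes high in either. Depth was estimated by dividing FPKM of low genes by the step that 1 read gives at the RefSeq exon length, and 53.4% to 54.5% of values under 21 reads came out whole within 0.02. Of the genes compared, 156 repeat the values of another symbol. The authors deposited UMI counts with cell types for single cells (STARsolo) and MACS peaks with a score, called after merging replicates.

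Genes named in the text are the delivered factors, members of each of 29 lists past the fold (at most 6 a list), the 15 largest differences upward and 15 downward at 5 FPKM or more without unnamed models, the 10 largest opposite differences in JGES, and genes called alike in all 4 sets. Other members of lists are given for reference. Values of some list members are not reported here. The members and lists were chosen with earlier results of these data known. The calling step was tested on simulated reads with counting error only. Such reads cannot show how many genes would pass the fold between untreated libraries. Python 3.11.15, pandas 2.3.3 and NumPy 2.4.6 were used.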

Additional observations from a re-analysis of the deposited data

Results flagged for a closer look

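These results stood in opposite directions in JGESO and JGES. The difference between the sets was not tested, since each side has 1 library.

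The list medians were -0.33 in JGESO and 1.15 in JGES for PrE regulators and receptors, -0.24 and 0.54 for endoderm basement membrane genes, and 0.29 and -0.41 for the 5 genes delivered to JGESO. Pou5f1 was not delivered in JGES, and the other 4 genes had medians of 0.29 and -0.13.

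Among genes, the log2(FPKM + 1) difference was 2.48 in JGESO and -4.08 in JGES for Hba-a1 and 2.32 and -3.45 for Hba-a2. It was 2.56 and -1.77 for Asprv1, 2.05 and -1.36 for Apela, 1.11 and -1.56 for the lysosomal enzyme gene Manba, and 1.06 and -1.37 for Pamr1. In the other direction it was -3.12 and 1.48 for Smim24, -1.42 and 1.79 for Abhd16a, -1.35 and 2.17 for the potassium channel gene Kcnk12, and -1.29 and 1.79 for Cabp7.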

How the results depend on the processing

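The number of genes past the fold followed the pseudocount and the fold by construction. In JGESO 1089 genes were higher and 818 lower with a pseudocount of 0.1, and 180 and 94 with 5. A fold of 0.58 gave 1798 and 1243 and a fold of 2 gave 69 and 25. With a pseudocount of 5 the counts were 513 and 516 in JGES, 31 and 30 in JGEO and 184 and 174 in JGE, and with 0.1 they were 713 and 308 in JGEO and 796 and 1001 in JGE. A pseudocount of 0.1 moved the medians to -0.46 for germ cell, -0.62 for early mesoderm, -1.39 for neural, 0.62 for endothelial, 1.38 for keratinocyte and -0.74 for HOX and CDX genes. A pseudocount of 5 moved them to 0.59 for visceral endoderm, -0.19 for neural, 0.46 for keratinocyte and -0.24 for HOX and CDX genes. Keeping members with a mean of at least 1 FPKM turned the sign for early mesoderm (0.046) and for bone and cartilage genes (0.10) and gave -0.91 for neural, 0.44 for blood and 1.61 for keratinocyte genes. Subtracting the medians of GC groups, chosen after seeing the data, gave 0.49 for BMP-SMAD targets and 0.92 for keratinocyte genes, and put Nid1, Flt1, Kdr, Acta2, Manba and Pamr1 under the fold. The median in JGES of genes higher in JGESO was 0.46 with a pseudocount of 5, and that of lower genes -1.66 with 0.1 and -0.52 with 5. Within 1 kb, wild-type SALL4 peaks were found for 78.3% of all, 64.1% of higher and 39.6% of lower genes, and delN12 peaks for 59.9% of all. The cause of shifts other than by construction was not tested.

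Scaling to a median ratio of 1 kept 29 of 29 list medians within 0.2 and left 8 of 8 counts within 1.5 times, and put Kdr just under the fold. No named gene changed sign under any of these settings, and 52 of the 120 named genes past the fold lay under it with a pseudocount of 5. With 1 library a side, leaving out a library gives no value. No paired analysis was possible because the JGESO comparison has 1 library a side and the other pairs hold other factor sets. Depth limits JGES most, with about 2700000 and 2900000 estimated reads.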
